A study of Mus musculus with 12 samples.

Results

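The Wnt pathway genes described here are the Wnt ligands, their Frizzled and LRP receptors, the R-spondins and their receptors, secreted inhibitors, and the cytoplasmic and nuclear parts of the pathway, measured in whole mouse ovaries. They were taken by gene symbol from an Affymetrix mouse expression array. A probe set, the group of probes that reads 1 transcript region, counted if the platform annotation gives it a single symbol. The symbols sought were those beginning with Wnt, Fzd, Sfrp, Dkk, Axin, Dvl, Rspo or Tcf7, the receptors Lgr4, Lgr5 and Lgr6, and 10 further pathway genes such as Lef1, Ctnnb1 and Rnf43. This gave 40 genes among the 10949 of the table, each read by its brightest probe set. Of 63 RefSeq symbols that match these names, 23 were not analysed here, among them Wnt4, Wnt5a, Rspo1, Sfrp4, Lgr5, Znrf3 and Gsk3b.

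The 12 arrays held RNA of ovaries from female mice killed at 23 weeks of age in diestrus, a stage of the estrous cycle. Of these arrays, 3 were of ovaries with stage II and 3 of ovaries with stage I tumors, all from mice with the alleles Pgrcre/+ and PgrBLsL/+. The 6 control arrays were of mice with the Pgrcre/+ allele alone and no tumor. All 12 arrays therefore shared the Pgrcre allele, in which Cre recombinase is placed in the progesterone receptor gene and follows its expression. All arrays with PgrBLsL were of ovaries with a tumor and no control was, so allele and tumor cannot be told apart. The labels call the arrays biological replicates of a group and do not say whether 1 mouse gave 1 array, so p-values measure the spread between arrays. Arrays are numbered here by the number in their titles.

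Values are log2 signals per array, so a difference of 1 is a doubling. They lay between 2.69 and 14.44 over the table, and arrays correlated at 0.9668 to 0.9971 over all genes. Pgr, the gene of the allele, was at 9.78 to 10.09 in stage II ovaries and 9.05 to 9.28 in stage I ovaries, against 3.74 to 4.60 in control ovaries, so every array with the PgrBLsL allele lay above every control. Along the first principal component stage II array 3 lay farthest from the controls, at 42.2 where the other stage II arrays were at 30.2 and 27.6. Several calls given here depend on that stage II array. On the same component stage I array 1, at 9.9, lay between the stage II arrays and the other stage I arrays, at -4.6 and -6.5. On the second component, control array 1 was at 17.4 and control array 4 at 19.4, while the other arrays lay between -16.1 and 10.7.

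Wnt proteins are lipid-modified secreted ligands that bind a Frizzled receptor together with LRP5 or LRP6. In the canonical branch, binding stops a complex of Axin, APC and GSK3 from marking beta-catenin for destruction, and beta-catenin then acts with TCF and LEF factors on target genes, Axin2 among them. R-spondins, acting through LGR receptors, keep the ubiquitin ligases RNF43 and ZNRF3 from removing Frizzled receptors from the cell surface. In the mouse ovary Wnt signalling takes part in female sex determination, follicle growth and formation of the corpus luteum, and forced activation of beta-catenin in granulosa cells gives rise to granulosa cell tumors.

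In stage II ovaries 8 of the 40 genes differed from control ovaries, and 5 of these were among the 9 Frizzled and co-receptor genes, in both directions. Of those 9, 22.2% were higher and 33.3% lower, beside 9.81% and 11.2% of all genes. Whether so small a set exceeds genes at large was not tested. Among the 5, Fzd4, Fzd8 and Lrp6 each lost the call in some fits that omitted 1 array. No ligand passed the test, nor did the readouts Axin2 and Lef1. Fzd1 was 2.08-fold and Fzd4 1.37-fold higher than in control ovaries, and 6 genes were lower, namely Rnf43, Dkk3, Fzd3, Fzd8, Lrp6 and Apc. Each of the 8 passed an adjusted p of 0.05 in limma, a linear model that shares information on the spread across genes, with Benjamini-Hochberg adjustment over all 10949 genes. Of all genes 9.81% were called higher and 11.2% lower in this comparison, and among the 40 members the shares were 5.0% and 15.0%. As a group, then, the members were called about as often as genes at large, and their median log2 difference was -0.08 where that of all genes was -0.01. In stage I ovaries 0 members passed in limma, and only Rnf43 had an unadjusted p under 0.05. Of all genes 0.192% were called higher in stage I against control and 0% lower, and 6.38% had an unadjusted p under 0.05. At that unadjusted level stage II against control gave 12 members, where 33.6% of all genes reached it. Against stage I ovaries, stage II ovaries had 2 members higher and 4 lower, where 6.54% of all genes were called higher and 5.97% lower.

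**Figure D1:**
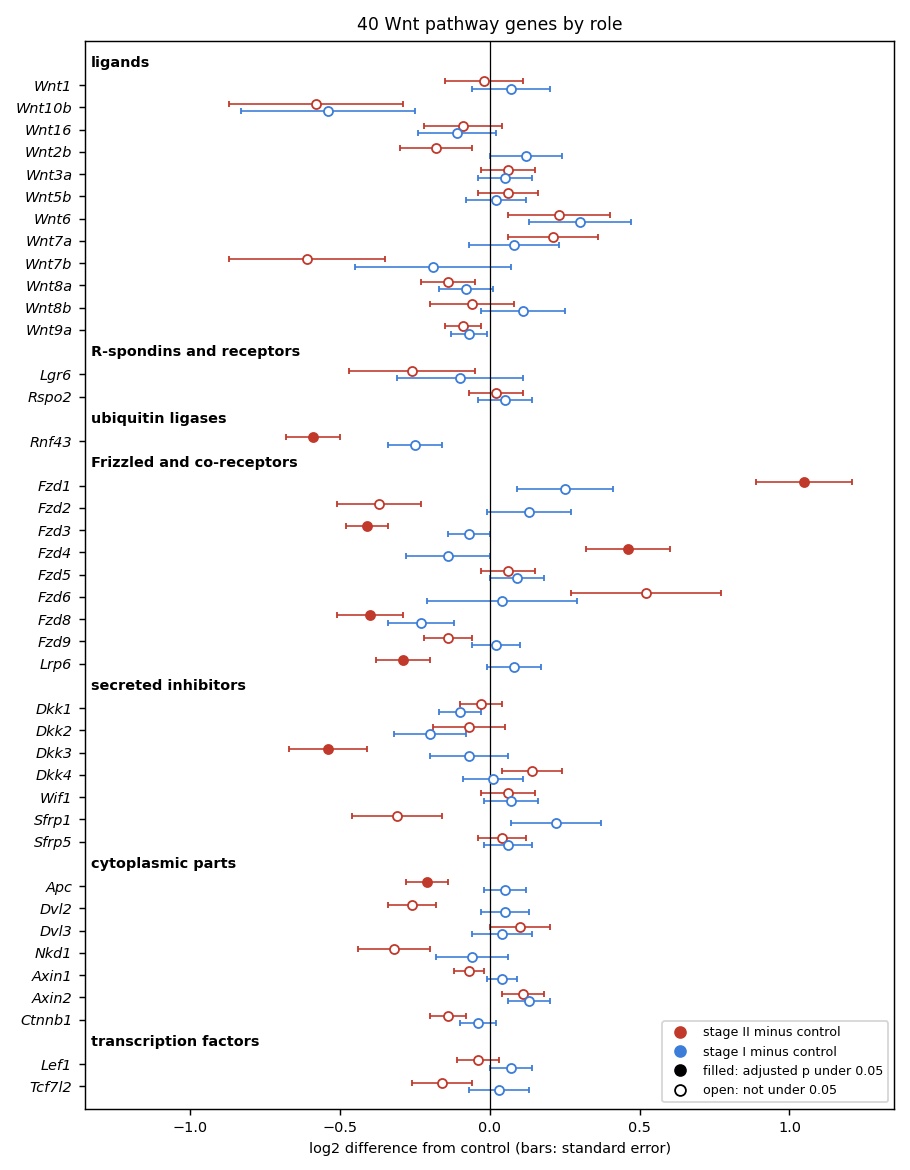
The plot gives the log2 difference from control ovaries (horizontal axis, bars are standard errors) of the 40 genes, grouped by role, in stage II (red) and stage I (blue) ovaries; filled points have an adjusted p under 0.05. The 8 filled points are all stage II, with Fzd1 the farthest to the right at 1.05 and Rnf43 the lowest of them at -0.59.

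Among the Wnt ligands 0 of 12 passed in stage II against control with limma, and at an unadjusted p under 0.05 only Wnt7b did. Over all genes 9.81% were called higher and 11.2% lower, and 33.6% reached that unadjusted level. The log2 differences of the 12 ligands ran from -0.61 to 0.23. Signals of the ligand probe sets lay between 3.62 and 9.34, and those of Wnt1, Wnt2b, Wnt8a, Wnt8b and Wnt9a stayed under 5 on every array. Wnt7b, a ligand that acts in lung and placental development, was at 6.94, 6.75 and 7.22 in stage II ovaries, against 7.19 to 8.48 (median 7.33) in control ovaries. The groups overlapped, and the difference of -0.61 ± 0.26 (SE) had an adjusted p of 0.126. The highest controls were array 6, at 8.48, and array 2, at 7.81.

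Wnt10b, a ligand known for restraining fat cell formation, was at 8.50, 8.47 and 8.29 in stage II ovaries, against 8.69 to 9.34 (median 8.95) in control ovaries. All 3 stage II arrays lay below all 6 controls, but the difference of -0.58 ± 0.29 (SE) did not pass (adjusted p = 0.187). Stage I array 1, which enters the shared spread, was at 7.50 where the other stage I arrays were at 8.76 and 9.10. Without it the difference was unchanged at -0.58 and passed (adjusted p = 0.037). Wnt6, a ligand of kidney and uterine development named here after its values were seen, was at 7.86, 7.87 and 8.29 in stage II ovaries, against 7.27 to 8.14 (median 7.82) in control ovaries, a difference of 0.23 ± 0.17 (SE, adjusted p = 0.392). The 95% interval of that difference ran from -0.15 to 0.61. The other 9 ligands, Wnt1, Wnt2b, Wnt3a, Wnt5b, Wnt7a, Wnt8a, Wnt8b, Wnt9a and Wnt16, differed from control by -0.18 to 0.21 in stage II ovaries.

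Of the R-spondin arm, Rspo2 and the receptor gene Lgr6 were measured. Rspo2 differed by 0.02 (95% interval -0.17 to 0.21) in stage II ovaries against control ovaries and Lgr6 by -0.26 (95% interval -0.71 to 0.19), and neither passed. Rnf43, which encodes the ubiquitin ligase that clears Frizzled receptors from the membrane and is itself a target gene of the pathway, fell. Its level was 5.02, 4.77 and 4.98 in stage II ovaries, against 5.30 to 5.65 (median 5.55) in control ovaries. No stage II array reached the lowest control. The difference was -0.59 ± 0.09 (SE, 95% interval -0.78 to -0.40, adjusted p = 0.00054), and it passed with each single array left out, at -0.64 to -0.52. In stage I ovaries Rnf43 was at 5.20, 5.38 and 5.22, between the other groups, with 2 of its 3 arrays below every control. The stage I difference from control was -0.25 ± 0.09 (SE, unadjusted p = 0.014, adjusted p = 0.621). Stage II ovaries were lower than stage I ovaries, with a difference of -0.35 ± 0.10 (SE, adjusted p = 0.0407), a call kept in 3 of 12 fits that each left out 1 array. All 3 stage II signals of Rnf43 lay below the lower quartile of all genes, 5.27, where an array responds weakly, and every control lay above it. No background limit was measured, and Rnf43 was read by 1 probe set.

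Of 8 Frizzled genes, Fzd1 and Fzd4 rose and Fzd3 and Fzd8 fell in stage II against control. Fzd1, a receptor that signals through beta-catenin and that ovulatory hormone induces in rat follicles, was at 8.37, 8.13 and 8.24 in stage II ovaries, against 6.84 to 7.33 (median 7.26) in control ovaries. Every stage II array lay well above every control. The difference was 1.05 ± 0.16 (SE, 95% interval 0.71 to 1.39, adjusted p = 0.000611), and it passed in all 12 fits without 1 array, at 0.98 to 1.11. In stage I ovaries Fzd1 was at 7.92, 7.15 and 7.27, so array 1 lay above every control and the other arrays within their range. The stage I difference of 0.25 ± 0.16 (SE, adjusted p = 0.888) was 0.02 without array 1. Stage II ovaries exceeded stage I ovaries by 0.80 ± 0.18 (SE, adjusted p = 0.0151). That comparison did not pass with stage I array 2 omitted (adjusted p = 0.0641), nor with stage I array 3 omitted (adjusted p = 0.0627).

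Fzd4, a receptor for Wnts and for norrin that mouse corpora lutea and vessels require, was at 9.59, 9.38 and 9.83 in stage II ovaries, against 8.74 to 9.39 (median 9.18) in control ovaries. The lowest stage II array lay just under the highest control. The difference was 0.46 ± 0.14 (SE, adjusted p = 0.0343). This difference did not pass when control array 3, 5 or 6 was omitted, or stage II array 1 or 3, and with stage II array 3 omitted it was 0.34 (adjusted p = 0.188). In stage I ovaries Fzd4 was at 9.19, 8.90 and 8.92, within the control range. Against stage I ovaries the stage II level was higher by 0.60 ± 0.16 (SE, adjusted p = 0.031). Omitting stage I array 2 or 3, or stage II array 1 or 3, left it short of the threshold, with adjusted p as high as 0.131. Flt1 was the 1 gene called higher of 5 measured endothelial markers, whose summed signal on the linear scale was 1540 to 1827 in stage II ovaries, against 1223 to 1678 in control ovaries. Whether vessel content had a part in the Fzd4 difference was not tested.

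Fzd3, a receptor of planar cell polarity and axon guidance, was at 5.80, 5.64 and 5.67 in stage II ovaries, against 6.00 to 6.21 (median 6.10) in control ovaries, with no overlap. The fall was -0.41 ± 0.07 (SE, adjusted p = 0.00277) and held in each fit without 1 array. Its dimmer second probe set differed by -0.15 (adjusted p = 0.40). Stage I ovaries were at 5.88, 6.13 and 6.09, and stage II ovaries were lower than these, with a difference of -0.33 ± 0.09 (SE, adjusted p = 0.0277). The last difference did not pass when array 2 or 3 of either stage was omitted (adjusted p up to 0.105).

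Fzd8, a receptor that pairs with LRP6 in canonical signalling, was at 7.21, 6.93 and 6.81 in stage II ovaries, against 7.18 to 7.52 (median 7.43) in control ovaries. Array 1 of stage II lay within the control range. The difference of -0.40 ± 0.11 (SE, adjusted p = 0.0232) no longer passed without stage II array 2 (adjusted p = 0.0679) or 3 (adjusted p = 0.134). Stage I ovaries were at 6.94, 7.31 and 7.21, a difference of -0.23 ± 0.11 (SE, adjusted p = 0.788) from control, and 1 of their arrays lay below 1 stage II array.

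Lrp6, the co-receptor that recruits Axin to the membrane, was at 9.73, 9.79 and 9.38 in stage II ovaries, against 9.87 to 10.03 (median 9.92) in control ovaries. All 3 stage II arrays were below all controls, and array 3 was the lowest of them. The difference was -0.29 ± 0.09 (SE, adjusted p = 0.0377), and without stage II array 3 it was -0.17 (adjusted p = 0.207). It also missed the threshold when control array 1, 2, 3, 5 or 6 was omitted (adjusted p at most 0.0649). Lrp6 in stage I ovaries was at 9.85, 10.09 and 10.09, so array 1 lay just below the lowest control and the others above the highest. Stage II ovaries were lower than stage I ovaries, with a difference of -0.38 ± 0.10 (SE, adjusted p = 0.0362). With stage I array 2 or 3 omitted, or control array 5, or stage II array 3, it did not pass (adjusted p at most 0.124).

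**Figure D2:**
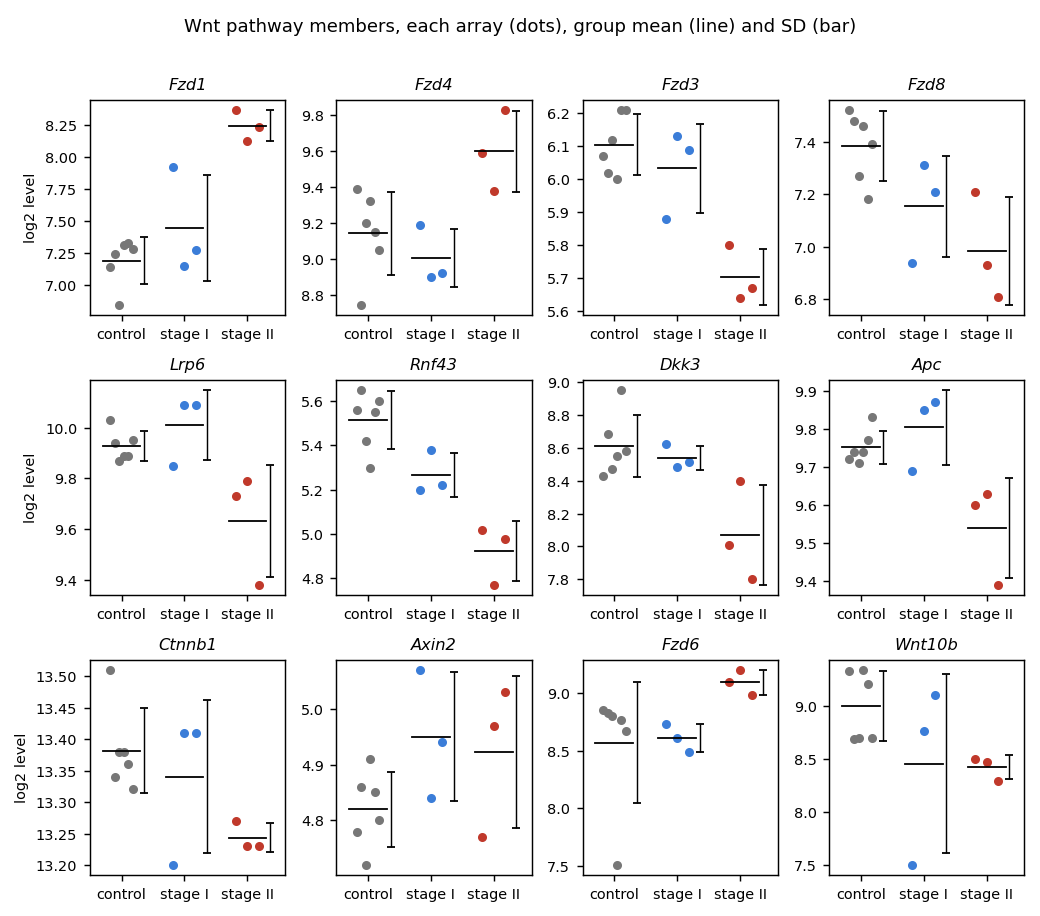
Each panel gives the log2 level (vertical axis, its own scale) of 1 gene on every array by group, with the group mean (line) and SD (bar). Fzd1 in stage II ovaries lies between 8.13 and 8.37, above all controls, Rnf43 lies between 4.77 and 5.02, below all controls, and Fzd6 has 1 control array at 7.51 far below the rest.

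Fzd6, a planar polarity receptor known from hair patterning, was at 9.10, 9.20 and 8.98 in stage II ovaries, against 7.51 to 8.85 (median 8.79) in control ovaries. All 3 stage II arrays were above all controls. The difference of 0.52 ± 0.25 (SE) did not pass (adjusted p = 0.16), and control array 4 was at 7.51 where the other controls were at 8.67 to 8.85. Without control array 4 the difference was 0.31 and passed (adjusted p = 0.0134). Fzd2, a receptor shared by canonical and non-canonical signalling and singled out here after its values were seen, showed the opposite direction. Its brightest probe set was at 7.82, 7.95 and 7.60 in stage II ovaries, against 7.71 to 8.39 (median 8.20) in control ovaries, a difference of -0.37 ± 0.14 (SE, adjusted p = 0.0879). Both other Fzd2 probe sets passed when every probe set was tested, at -0.63 (adjusted p = 0.00757) and -0.62 (adjusted p = 0.0036). The low control of the brightest probe set was array 1, and without it the difference was -0.46 (adjusted p = 0.0145). Fzd5 and Fzd9 differed by 0.06 and -0.14 and did not pass.

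Counting arrays and not tests, 2 members had all stage II arrays above all controls, Fzd1 and Fzd6, and 7 had them all below, Fzd3, Lrp6, Rnf43, Dkk3, Apc, Ctnnb1 and Wnt10b. Among all genes 9.97% separated upward and 12% downward in this way.

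For the receptor genes Fzd1 and Fzd4, which rose, and for Rnf43, which fell, the 250 bases before the transcription start follow, since they are the Frizzled genes that rose and the ligase that acts on Frizzled proteins. They are in lower case from 5′ to 3′ on the strand of the gene, from RefSeq on build GRCm38.p6, at chr5:4758217-4758466 (minus strand), chr7:89404116-89404365 (plus strand) and chr11:87662837-87663086 (plus strand, the upstream one of 2 listed starts).
Fzd1: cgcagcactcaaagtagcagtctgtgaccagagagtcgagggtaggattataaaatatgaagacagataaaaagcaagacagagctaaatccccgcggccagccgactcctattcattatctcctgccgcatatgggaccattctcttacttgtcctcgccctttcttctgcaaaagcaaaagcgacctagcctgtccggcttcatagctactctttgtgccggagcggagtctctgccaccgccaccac
Fzd4: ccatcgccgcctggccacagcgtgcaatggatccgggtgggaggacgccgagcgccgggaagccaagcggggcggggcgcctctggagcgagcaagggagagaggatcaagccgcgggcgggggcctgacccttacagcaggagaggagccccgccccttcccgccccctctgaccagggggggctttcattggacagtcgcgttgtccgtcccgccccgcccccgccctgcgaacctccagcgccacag
Rnf43: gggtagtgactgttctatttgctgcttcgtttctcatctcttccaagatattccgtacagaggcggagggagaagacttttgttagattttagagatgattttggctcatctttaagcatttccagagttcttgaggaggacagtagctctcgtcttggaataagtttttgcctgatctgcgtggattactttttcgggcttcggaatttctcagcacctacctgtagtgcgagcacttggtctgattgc
The G and C content was 51.2% for Fzd1, 72.8% for Fzd4 and 44.4% for Rnf43, with a median of 52.4% over all 32851 promoter windows. Neither the TCF/LEF core (CTTTGAA or its forms CTTTGAT and also CTTTGTA and also CTTTGTT) nor a full palindromic progesterone receptor element was found on either strand of these 3 windows, so no base is in capitals. Of all windows 14.8% held the TCF/LEF core and 0.387% the progesterone receptor element. Promoters of 27 members were listed, and 4 of their 35 windows held the TCF/LEF core and 0 the other motif. This says only that these letters are not in these windows.

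Of 7 secreted inhibitors 1 was called in stage II against control, where 9.81% of all genes were called higher and 11.2% lower. Dkk3, a divergent member of the Dickkopf family found in stroma and smooth muscle, was at 8.01, 8.40 and 7.80 in stage II ovaries, against 8.43 to 8.95 (median 8.57) in control ovaries. The groups did not overlap, although stage II array 2, at 8.40, lay close to the lowest control. The fall was -0.54 ± 0.13 (SE, adjusted p = 0.0129). With stage II array 1 omitted the adjusted p was 0.0502, and with stage II array 3 omitted it was 0.0858. Stage I ovaries, at 8.62, 8.48 and 8.51, lay within the control range, and the stage II difference from them, -0.47 ± 0.15 (SE), did not pass (adjusted p = 0.0643). Sfrp1, a Frizzled-like decoy for Wnts named here after its values were seen, was at 9.35, 9.30 and 8.90 in stage II ovaries, against 9.15 to 9.90 (median 9.54) in control ovaries. Its difference of -0.31 ± 0.15 (SE) did not pass (adjusted p = 0.163), while its dimmer probe set, when every probe set was tested, did (-0.37, adjusted p = 0.0204). Dkk1, Dkk2, Dkk4, Sfrp5 and Wif1 differed by -0.07 to 0.14 and did not pass, and all but Sfrp5 were at or below 4.69 on every array.

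Of the 7 cytoplasmic parts only Apc was called in stage II against control, beside 9.81% of all genes called higher and 11.2% lower. Apc, the scaffold of the beta-catenin destruction complex, was at 9.60, 9.63 and 9.39 in stage II ovaries, against 9.71 to 9.83 (median 9.74) in control ovaries. The groups did not overlap, and the change was small, at -0.21 ± 0.07 (SE, adjusted p = 0.0394), a level 1.16-fold lower. It did not pass when control array 2, 3, 5 or 6, stage I array 2, or stage II array 1 was omitted, and with stage II array 3 omitted it was -0.14 (adjusted p = 0.211). Stage I ovaries were at 9.69, 9.85 and 9.87, and stage II ovaries were lower than these, with a difference of -0.26 ± 0.08 (SE, adjusted p = 0.0429). Of 12 fits that each omitted 1 array, 9 lost that call, the exceptions being those that omitted control array 4, stage I array 1 and stage II array 2.

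Ctnnb1, which encodes beta-catenin, gave 13.27, 13.23 and 13.23 in stage II ovaries, against 13.32 to 13.51 (median 13.37) in control ovaries. No stage II array reached a control, and the difference was -0.14 ± 0.06 (SE), with a 95% interval of -0.27 to 0.00 and an adjusted p of 0.152. Its dimmer second probe set differed by -0.12 ± 0.07 (SE) when every probe set was tested (adjusted p = 0.30). In stage I ovaries Ctnnb1 was at 13.20, 13.41 and 13.41, a difference of -0.04 ± 0.06 (SE, adjusted p = 0.987). Messenger level says nothing of the stability or place of the protein, through which the pathway acts.

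Axin2, the feedback inhibitor most used as a readout of canonical signalling, was at 4.77, 4.97 and 5.03 in stage II ovaries, against 4.72 to 4.91 (median 4.82) in control ovaries. The groups overlapped, and the difference was 0.11 ± 0.07 (SE, adjusted p = 0.343) with a 95% interval of -0.05 to 0.26. In stage I ovaries Axin2 was at 5.07, 4.84 and 4.94, a difference of 0.13 ± 0.07 (SE, adjusted p = 0.868). Lef1, a transcription factor of the pathway and also a target, was at 4.30, 4.10 and 4.38 in stage II ovaries, against 4.22 to 4.36 (median 4.30) in control ovaries. The groups overlapped, and the difference was -0.04 (95% interval -0.19 to 0.11, adjusted p = 0.743). Nkd1, a Dishevelled-binding feedback inhibitor, was at 6.79, 6.58 and 6.51 in stage II ovaries, against 6.62 to 7.27 (median 6.91) in control ovaries. Its difference of -0.32 ± 0.12 (SE) did not pass (adjusted p = 0.0889), and without control array 1 it was -0.38 (adjusted p = 0.0283). Axin2 and Lef1 gave signals below the lower quartile of all genes, 5.27, where an array responds weakly. Dvl2, a Dishevelled gene named after its values were seen, came nearest to the threshold at -0.26 ± 0.08 (SE, adjusted p = 0.0511), and without control array 1 it was -0.30 (adjusted p = 0.0206). Axin1, Dvl3 and the transcription factor gene Tcf7l2 differed by -0.16 to 0.10 and did not pass.

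In all, 10 members were read by more than 1 probe set. All 24 probe sets of these genes had a lower mean in stage II than in control ovaries, the difference being only -0.01 for the dimmer Wnt8b probe set, and no gene had probe sets of opposite sign.

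**Figure D3:**
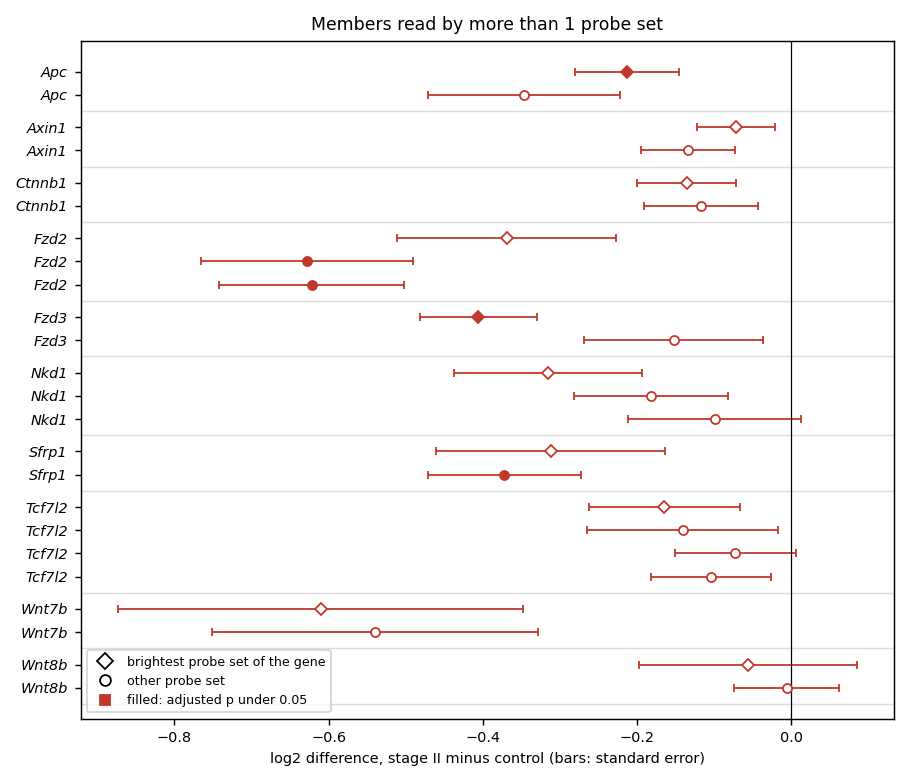
The log2 difference of stage II from control ovaries (horizontal axis, bars are standard errors) is given for each probe set of the 10 genes with more than 1, diamonds marking the brightest; filled points have an adjusted p under 0.05. The 3 Fzd2 probe sets lie at -0.37, -0.63 and -0.62, and all points lie left of 0.

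Outside these 40 genes, 4 lists of pathway genes were counted. Of 20 measured Wnt target genes 3 rose and 1 fell in stage II against control, and the median of the list was 0.00. Over all genes 9.81% were called higher and 11.2% lower in this comparison, and the counts of all 4 lists are to be read against these shares. The count of 3 targets higher was 1 with control array 2, 3 or 5, or stage II array 1 or 3, omitted. Ccnd1, which encodes cyclin D1, the driver of the G1 phase, and which many other signals also induce, was at 12.36, 12.51 and 12.83 in stage II ovaries, against 7.83 to 8.50 in control ovaries. That is 20.6-fold (log2 4.37 ± 0.30 SE, adjusted p = 1.53e-06), and stage II exceeded stage I, at 11.56, 9.91 and 9.97, by 4.25-fold (adjusted p = 0.00352). Ccn1, a matrix-associated protein (log2 1.10 ± 0.35 SE, adjusted p = 0.0426), and Vegfa, the vessel growth factor (0.58 ± 0.17 SE, adjusted p = 0.0308), also rose. Twist1, a mesenchymal transcription factor, fell (-0.63 ± 0.17 SE, adjusted p = 0.021). Ccn1 missed the threshold with any stage II array omitted, with control array 1, 2, 3 or 5 omitted, and with stage I array 1 or 3 omitted. Vegfa did so with stage II array 1 or 3, or control array 2, 3 or 5, omitted, and Twist1 with stage II array 1 or 3 omitted. The other 16 targets did not pass.

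Among 28 genes of Wnt secretion, transduction and nuclear partners 3 rose and 7 fell, with a median of -0.10, where 9.81% of all genes were called higher and 11.2% lower. Porcn, which encodes the acyltransferase that adds the lipid to Wnt proteins, was at 9.67, 9.59 and 8.99 in stage II ovaries, against 7.05 to 8.63 in control ovaries, with no overlap. The rise was 2.7-fold (log2 1.43 ± 0.32 SE, adjusted p = 0.00881), and it passed with each single array left out, at 1.25 to 1.65. Control arrays 4 and 1 were the lowest, at 7.05 and 7.46, and over all 23 alternatives the difference was as small as 1.07. In stage I ovaries Porcn was at 8.92, 8.63 and 8.23. Wls, the carrier that brings Wnt proteins to the cell surface, also rose, at 10.34, 10.39 and 10.32 in stage II ovaries, against 9.94 to 10.17 in control ovaries (0.33 ± 0.08 SE, adjusted p = 0.0117). Dact1, a Dishevelled-binding protein (-0.57 ± 0.18 SE, adjusted p = 0.0362), and Gpc4, a glypican that binds Wnts at the membrane (-0.41 ± 0.10 SE, adjusted p = 0.0163), fell. Without stage II array 3 all 7 falls of this list were lost. Dact1 also missed the threshold with control array 1, 2, 4, 5 or 6, or stage II array 1, omitted, and with stage II array 3 omitted it was at -0.33 (adjusted p = 0.211). In stage II against stage I, 0 genes of this list were called higher and 2 lower, beside 6.54% and 5.97% of all genes. Wls was at 10.36, 10.02 and 10.05 in stage I ovaries.

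Of 16 genes of planar polarity and non-canonical receptors 3 rose and 4 fell, with a median of -0.13, beside the same 9.81% and 11.2% of all genes. Daam2, a formin that binds Dishevelled, was at 6.58, 6.34 and 6.55 in stage II ovaries, against 4.94 to 5.15 in control ovaries, and 5.60, 4.85 and 5.05 in stage I ovaries. It rose 2.77-fold against control (log2 1.47 ± 0.13 SE, adjusted p = 1.14e-05) and 2.51-fold against stage I (adjusted p = 0.000336). Rac1, a small GTPase that remodels actin, rose by 0.50 ± 0.07 (SE, adjusted p = 0.000589) against control and by 0.41 ± 0.08 (SE, adjusted p = 0.011) against stage I. Celsr1, a cadherin of the polarity complex, fell (-0.92 ± 0.26 SE, adjusted p = 0.0276), as did Ror2, a receptor for WNT5A (-0.39 ± 0.12 SE, adjusted p = 0.0383). Celsr1 missed the threshold with stage II array 1 or 3 omitted, and Ror2 with any stage II array, or control array 1, 2, 3, 5 or 6, omitted. Without stage II array 3 all 4 falls of this list were lost.

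Cadherins hold beta-catenin at the membrane. The last list had 4 measured genes, the cadherins Cdh2, Cdh3 and Cdh5 and the junction gene Jup, which is not a cadherin, and 1 rose and 1 fell. Cdh2, which encodes N-cadherin, a cadherin found in granulosa cells and not only there, was at 11.29, 11.19 and 10.92 in stage II ovaries, against 9.56 to 10.09 in control ovaries. The 2.58-fold rise (log2 1.37 ± 0.14 SE, adjusted p = 3.03e-05) was also seen against stage I (2.13-fold, adjusted p = 0.00161). Cdh3, P-cadherin, fell (-0.26 ± 0.07 SE, adjusted p = 0.023), which did not pass with any 1 of the stage II arrays omitted.

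**Figure D4:**
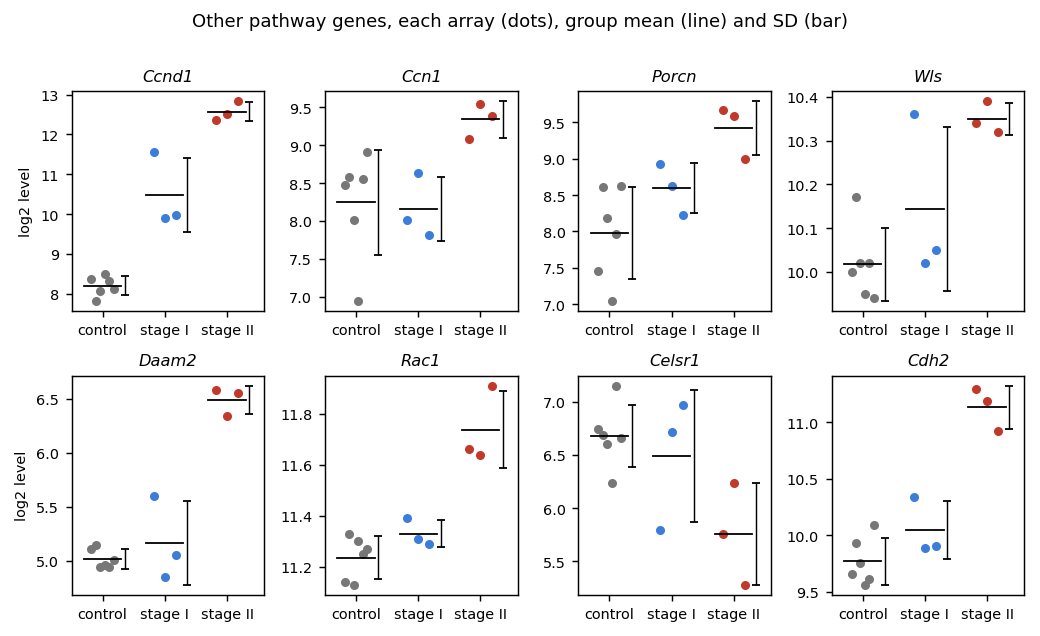
Each panel gives the log2 level (vertical axis, its own scale) of 1 further pathway gene on every array by group, with the group mean (line) and SD (bar). Ccnd1, Daam2 and Cdh2 in stage II ovaries lie above every control and every stage I array, and Celsr1 spreads from 5.28 to 6.24 in stage II ovaries.

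In whole ovaries, fewer cells of a type and less RNA per cell cannot be told apart, and markers of several cell types moved with these genes. In stage II against control, limma called 7 of 7 measured fibroblast and stroma markers lower, 8 of 8 oocyte markers, 5 of 5 granulosa markers, 3 of 4 theca and interstitial markers and 6 of 10 smooth muscle and pericyte markers. It called 4 of 5 macrophage markers higher, with 2 of 3 decidua and placenta markers, 1 of 3 luteal, 1 of 4 surface epithelium and 1 of 5 endothelial markers. Of 4 adipocyte markers 1 was higher and 1 lower, and of 4 oviduct markers 0 were called. Oviduct signal was uneven within each group, summing on the linear scale to 235 to 3295 in stage II and 279 to 6950 in control ovaries. In stage I ovaries it was 327 to 3815. Ovgp1 was highest on control array 5 (12.7), stage I array 2 (11.77) and stage II array 2 (11.58). The summed linear signal of the fibroblast and stroma list was 10017 to 12812 in stage II ovaries, against 16307 to 17341 in control ovaries. For the smooth muscle and pericyte list it was 12150 to 15099 in stage II ovaries, against 18868 to 20779 in control ovaries, and for the granulosa list it was 7767 to 16287 in stage II ovaries, against 18036 to 26446 in control ovaries. For the oocyte list it was 1442 to 2434 in stage II ovaries, against 2995 to 4123 in control ovaries, for the theca and interstitial list 5398 to 10291 in stage II ovaries, against 8594 to 13887 in control ovaries, and for the macrophage list 4712 to 5825 in stage II ovaries, against 2936 to 3556 in control ovaries. For the surface epithelium list, with 1 of 4 markers called, the sum was 5157 to 12320 in stage II ovaries, against 884 to 2327 in control ovaries. For the decidua and placenta list it was 3219 to 4451 against 328 to 462. For the adipocyte list it was 3423 to 5030 against 666 to 2548, and for the luteal list 5764 to 8753 against 3571 to 17881. The part of these shifts in the lower values of Dkk3, Fzd2, Fzd3, Lrp6, Rnf43 and Apc was not tested. In stage I against control, limma called 1 gene of all 12 marker lists, Prl7a2 of the decidua and placenta list, and 0 of the 40 Wnt pathway genes.

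Stage I against control asked which members had moved at the earlier tumor stage. In that comparison 0.192% of all genes were called higher and 0% lower. The 40 log2 differences ran from -0.54 (Wnt10b) to 0.30 (Wnt6), with a median of 0.04, and 0 members had all stage I arrays above or below all controls, where 2.23% of all genes separated upward and 1.45% downward. At an unadjusted p under 0.05 there was 1 member, Rnf43, while 6.38% of all genes reached that level. Among the 4 pathway lists, only Ccnd1 was called (log2 2.28 ± 0.30 SE, adjusted p = 0.00536).

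Stage II against stage I tests whether the stages themselves differ. In that comparison 6.54% of all genes were called higher and 5.97% lower, and of the 40 members Fzd1 and Fzd4 were higher and Apc, Fzd3, Lrp6 and Rnf43 lower. Those are 5.0% and 10.0% of the members. With quantile normalization the split over all genes moved to 681 higher and 943 lower, against 716 and 654 as deposited. All stage II arrays lay above all stage I arrays in 3 members and below them in 12, where 14.5% of all genes separated upward and 17.1% downward. At an unadjusted p under 0.05 there were 10 members, and 27.2% of all genes. Without stage I array 2, and likewise without stage I array 3, 0 members passed. Both comparisons of stage II use the same 3 stage II arrays, so that their calls are not independent. Dkk3 and Fzd8, called against control, were not called against stage I. Dkk3 passed there in 6 of 23 alternatives, among them the omission of stage II array 2 (-0.63, adjusted p = 0.0134) or of control array 5 (adjusted p = 0.0442).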

How the data were processed

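Ovary RNA was hybridised to 12 arrays of 1 colour. The values are log2 signals per probe set that the authors deposited, and the sources used here do not give their summary and normalization. Array medians lay between 7.09 and 7.15, so the arrays had been scaled alike. No detection calls were used, and the number of arrays limits the precision. Of 16376 probe sets, 14674 had 1 gene symbol in the platform annotation, 427 several and 1275 none; only the first were used, with the brightest probe set (highest mean over 12 arrays) for each of 10949 genes. RefSeq (GRCm38.p6) listed 14632 of these probe sets' Entrez identifiers and changed 0 symbols. Sequences came from RefSeq.

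With limma 3.58.1 in R 4.3.3, a single model with a mean per group took in all arrays (9 residual and 3.13 prior degrees of freedom), and p-values were adjusted by Benjamini-Hochberg over all genes. It was tested on simulated data. The 23 alternatives changed the scaling, the filter on dim genes, the choice of probe set, the arrays fitted, the weights, the prior or the block, or omitted arrays. Groups follow the sample titles. Replicate numbers were not taken as pairs: of 9 same-numbered pairs of arrays, 3 had deviations from their group means that correlated above 0.1 (range -0.132 to 0.204).

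The members and gene lists were chosen with earlier results of these data known. Genes named with full values are the 8 members called in any comparison, the fixed readouts Ctnnb1, Axin2, Lef1 and Nkd1, the 3 uncalled members with the largest difference, and up to 4 called genes of each pathway list; others are said to be named after their values were seen or are given as ranges.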

Additional observations from a re-analysis of the deposited data

Results flagged for a closer look

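Among the 6 control arrays of each of the 40 genes, 1 array stood far from the other 5 by Dixon's criterion in 7 genes. For independent values with a normal spread, chance gives about 1 such gene in 20. The criterion was applied to the 40 members only, so whether 7 exceeds genes at large was not tested. Control replicate 4 was the outlying array in 3 of the 7 genes, with 7.51 in Fzd6, 5.28 in Fzd5 and 4.63 in Wnt1. It was low in Fzd6 and high in the others. Control replicate 1 was high in Ctnnb1, at 13.51, and low in Fzd2, at 7.71. Control replicate 5 was high in Wnt16, at 5.27, and control replicate 6 low in Wnt3a, at 5.18. Control replicates 1 and 4 are also the arrays that stood apart on the second principal component. With both left out, the stage II difference from control was 0.33 for Fzd6 (limma, adjusted p = 0.0144) and -0.48 for Fzd2 (adjusted p = 0.0165), and both then passed.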

How the results depend on the processing

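Fzd1 and Rnf43 in stage II against control kept their direction and their call in all 23 alternatives, at 0.98 to 1.17 (limma, adjusted p up to 0.00792) and -0.64 to -0.51 (adjusted p up to 0.0152). The count of members called in that comparison, 2 higher and 6 lower, was 1 to 3 higher and 2 to 8 lower with each array left out. It was 1 higher and 1 lower with the replicate number as a block (replicate block), and 1 higher with the 3 arrays highest in the oviduct gene Ovgp1 omitted. Control replicates 4, 5 and 6 share their numbers with no tumor array, so in the block fit they did not enter the differences. Stage I against control gave 0 members in every alternative. In stage II against stage I the counts, 2 higher and 4 lower, were 0 to 3 higher and 0 to 5 lower with each array left out. There were 7 lower with quantile normalization, with centred medians and with array weights, 1 higher and 0 lower with the compared groups fitted alone, 0 lower with the replicate block, and 0 higher and 1 lower with the 3 arrays of highest Ovgp1 omitted. Over all genes stage II against control gave 1074 higher and 1228 lower, and 688 and 402 with the replicate block, or 713 and 432 without stage II replicate 3. Ccnd1 in stage II against stage I did not pass with the compared groups fitted alone (adjusted p = 0.0504), and Porcn in stage II against control did not with the 3 high-Ovgp1 arrays omitted (adjusted p = 0.0671). Wls in stage II against control did not pass with the replicate block (0.28, adjusted p = 0.139) or with those arrays omitted (0.31, adjusted p = 0.0653). Rac1 in stage II against stage I did not pass with the compared groups fitted alone (adjusted p = 0.0632), with the replicate block (adjusted p = 0.0696) or with those arrays omitted (adjusted p = 0.0579). Dkk3 in stage II against stage I passed with quantile normalization (adjusted p = 0.0439), centred medians (adjusted p = 0.0451), array weights (adjusted p = 0.0403) and those arrays omitted (adjusted p = 0.0182). Stage II against stage I gave 716 and 654 over all genes, and 311 and 82 with the compared groups alone, 1094 and 1214 with array weights, 435 and 167 with the replicate block, and 329 and 215 with the 3 arrays of highest Ovgp1 omitted; with 1 array left out they were as low as 408 and 170. Stage I against control gave 21 and 0, and 5 and 1 with the replicate block, 13 higher without control replicates 1 and 4 together, and 11 higher with the 3 arrays of highest Ovgp1 omitted. With the block, Ccnd1 in stage I did not pass (adjusted p = 0.2). Of the 9 arrays with a same-numbered partner, 2 correlated best with their own number. The value of Lef1 in stage II against control ranged from -0.1 to 0.04 with 1 array omitted, turning positive without stage II replicate 2, and was 0.02 without the high-Ovgp1 arrays, and the sign of Ctnnb1 in stage I turned, to 0.01 with array weights and to 0.03 without stage I replicate 1, in a range of -0.08 to 0.03. With array weights Fzd8 in stage II against control was -0.23 (adjusted p = 0.0967). Dvl2 in that comparison passed in 6 of 23 alternatives. Among them were quantile normalization (adjusted p = 0.0281), centred medians (adjusted p = 0.0279), omission of dim genes (adjusted p = 0.0406) and array weights (adjusted p = 0.0395). Averaging all probe sets of each gene brought Fzd2 (-0.54, adjusted p = 0.0102) and Sfrp1 (-0.34, adjusted p = 0.0105) past the threshold in stage II against control. The readout Nkd1 passed there too (-0.2, adjusted p = 0.0469), and also with quantile normalization (-0.35, adjusted p = 0.0491). The causes of these shifts were not tested. Of the 40 members 13 had a mean signal below the lower quartile of all genes, where differences are hard to measure.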
